A study of Danio rerio with 24 samples.

Results

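The genes described here are members of the TNF receptor family that zebrafish share with mammals, namely *tnfrsf18*, *tnfrsf1a*, *tnfrsf1b*, *tnfrsf21* and *fas*. They were chosen by name, as the probes of a commercial zebrafish expression array whose target belongs to 1 of these genes. Earlier results of these data were known when the names were chosen, so counts of members beside all probes are descriptive. Of the 5 genes, 4 had a probe, with 8 probes in all, among 12858 genes with a symbol and 43603 probes. No probe could be paired with *fas*, so this gene was not analysed here. *tnfrsf18* had 1 probe (A_15_P408085), *tnfrsf1a* 2 (A_15_P106641 and A_15_P435205), *tnfrsf1b* 3 (A_15_P738191, A_15_P150116 and A_15_P638346) and *tnfrsf21* 2 (A_15_P150341 and A_15_P730861). The probes of a gene are numbered below in this order, and probe 1 is the brightest one.

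The study asked how tissues of the fish respond to an acute bacterial stimulus. Wild-type adult zebrafish of 9 months, on the diet labelled normal, were injected intraperitoneally with 10 μg of LPS, the lipopolysaccharide of Gram-negative bacteria, or with an equal volume of PBS. Kidney, liver and muscle were taken 3 hours later. Each of the 6 groups (LPS kidney, PBS kidney, LPS liver, PBS liver, LPS muscle, PBS muscle) held 4 arrays, each of RNA from a pool of tissue of 3 fish, so an array averages 3 animals and all the cell types of a tissue. In such bulk RNA, fewer cells of a type and less RNA per cell cannot be told apart.

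TNF receptors are membrane proteins whose ligands, trimers of the TNF family, cluster them at the cell surface. In mammals the product of *tnfrsf1a* (TNFR1) is the main receptor of soluble TNF. It carries a death domain, and through the adaptor TRADD it leads either to NF-kB and inflammatory genes or, by way of FADD and initiator caspases, to cell death. The mammalian *tnfrsf1b* product (TNFR2) has no death domain and recruits TRAF proteins. *tnfrsf21* encodes death receptor DR6, known in mammals from neurons and lymphocytes, and *tnfrsf18* encodes GITR, a co-stimulatory receptor of mammalian T cells, prominent on regulatory T cells. The fish kidney is the main blood-forming organ and is rich in leukocytes.

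Values are log2 signals relative to the 75th percentile of each array, so 0 is a fairly bright spot and a difference of 1 is a doubling. Between 39.4% and 84.8% of the spots of an array were well above background, and the lowest signal so classed lay between -7.49 and -1.72, so faint probes can be read to a lower level on some arrays than on others. The 24 arrays lay on 10 slides, numbered arbitrarily here. In the kidney, PBS replicates 1, 2 and 3 were on slide 8, which held no other array and was scanned on another day, whereas PBS replicate 4 shared slide 2 with LPS replicates 1 to 3. The mean of 13 muscle fibre genes ran from 2.84 to 5.16 in muscle and was no higher than 2.61 in kidney and -1.35 in liver. The mean of 10 kidney tubule genes ran from 0.77 to 3.67 in kidney, against -1.77 to 0.69 in liver and -4.66 to -1.35 in muscle. Hepatocyte genes were high in the liver (9 genes, mean 3.54 to 8.51) but reached 6.56 in LPS kidney replicate 2 and 7.10 in PBS kidney replicate 2, and 6.11 in LPS muscle replicate 4 and 4.78 in PBS muscle replicate 2, all above LPS liver replicate 2 (3.54). RNA of oocytes and germ cells was present in all 3 tissues, to very unequal levels, and its values are given beside the results with which it moved.

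**Figure D1:**
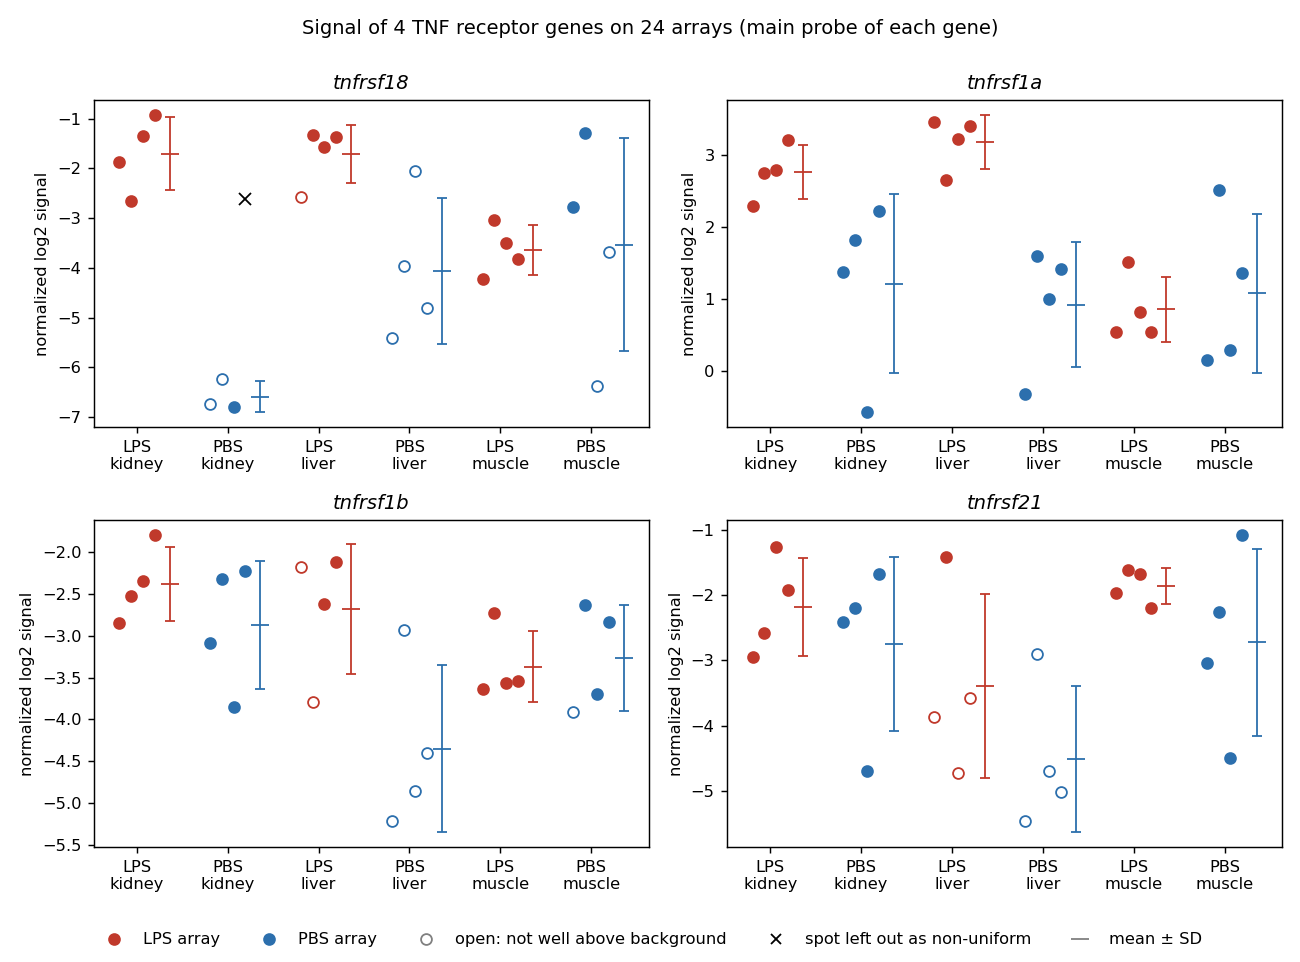
Normalized log2 signal (y axis) of the brightest probe of *tnfrsf18*, *tnfrsf1a*, *tnfrsf1b* and *tnfrsf21* on the 24 arrays, by group (x axis, LPS left of PBS in each tissue, arrays in the order of their replicate numbers), with the mean ± SD beside the points; open points were not well above background and the cross is a spot left out for non-uniform pixels. *tnfrsf1a* lies above the PBS range on every LPS array of kidney and liver and within it in muscle, and the cross of *tnfrsf18* lies at -2.62 beside 3 PBS kidney arrays below -6.2.

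The signals of the 4 genes differed in what could be measured. *tnfrsf1a* (probe 1) was well above background on all 24 arrays. The first probes of *tnfrsf1b* and *tnfrsf21* were well above background on all 8 kidney arrays and on most muscle arrays, but on 0 of the 4 PBS liver arrays. *tnfrsf18* was measured on all 4 LPS kidney and all 4 LPS muscle arrays and on 3 of 4 LPS liver arrays, against 1 of 3 PBS kidney, 0 of 4 PBS liver and 2 of 4 PBS muscle arrays. Probes 2 and 3 of *tnfrsf1b* were near background on most arrays. Levels are not set against each other between probes, since each probe binds its target with its own strength.

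In the kidney, *tnfrsf18* was the only one of these genes to pass the test, and its call rested on 1 spot that was left out. *tnfrsf18* gave -1.88, -2.65, -1.35 and -0.93 on the LPS kidney arrays (replicates 1 to 4). On the PBS kidney arrays it gave -6.74, -6.23 and -6.80 (replicates 1 to 3), the first and second of which were not well above background. The groups did not overlap, and every LPS array was more than 3 log2 units above every PBS array that was counted. The difference was 4.89 (SE 0.48, LPS minus PBS, 95% interval 3.78 to 6.0), with an adjusted p of 0.0256 (limma, Benjamini-Hochberg over 40141 probes). Since 1 of the 3 PBS arrays measured the probe, no fold is given.

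The fourth PBS array is missing from that value because the image software flagged its spot for non-uniform pixels. The spot was nevertheless well above background, and with it the PBS kidney value of replicate 4 is -2.62, inside the range of the LPS arrays. PBS replicate 4 is also the PBS array that shared a slide with LPS arrays, while the 3 low values all came from slide 8. With the spot kept, the difference was 3.90 (SE 0.93, adjusted p = 0.417), and within slide 2 it was 0.66 between 3 LPS arrays and this 1 PBS array. The deposited table of normalized values keeps the spot too. On its scale *tnfrsf18* reads 1.03, 0.26, 1.56 and 1.98 in LPS kidney, against -3.84, -3.33, -3.89 and 0.29 in PBS kidney. Without the spot, slide and treatment cannot be told apart for this probe, and a block for the slide could not be fitted. Which of the PBS levels is the one of the tissue was not tested.

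**Figure D2:**
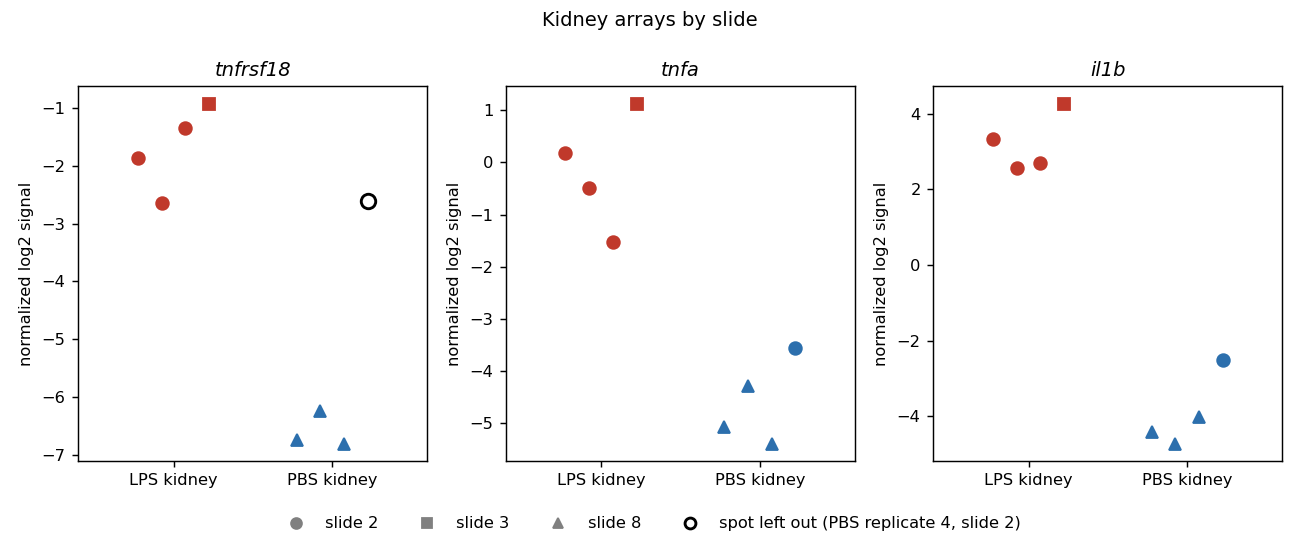
Normalized log2 signal (y axis) of *tnfrsf18*, *tnfa* and *il1b* on the kidney arrays, LPS left of PBS, with the shape giving the slide; the open black circle is the *tnfrsf18* spot of PBS replicate 4 that was left out. For *tnfa* and *il1b* PBS replicate 4 lies at -3.55 and -2.51, above the other PBS arrays but below every LPS array, whereas for *tnfrsf18* it lies among the LPS arrays.

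The call was also weak by other measures. Leaving out any 1 of the 7 arrays that entered the value ended it, with differences of 4.63 to 5.21. The adjusted p was 0.15, 0.0945 and 0.0615 without PBS replicates 1, 2 and 3, and 0.143, 0.0676, 0.138 and 0.108 without LPS replicates 1 to 4. Those fits called 5, 2 and 35 of all probes without PBS replicates 1, 2 and 3, and 2 without any LPS replicate, against 32 with all arrays. Most of them thus lost nearly all calls and not that of *tnfrsf18* alone. With the replicate number as a block, which pairs the kidney arrays by number only, the difference was 4.63 with an adjusted p of 0.147. With a model of the local background (normexp) it was 2.82 (adjusted p = 0.768). For comparison, *il1b*, an inflammatory cytokine, passed the test in the same arrays (7.13, SE 0.58, adjusted p = 0.0107), and its PBS replicate 4 lay at -2.51, below the lowest LPS value of 2.58. With 1 array left out the adjusted p of *il1b* ran from 0.00464 to 0.0977 and missed the threshold in 6 of 8 cases.

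*tnfrsf1a* gave 2.29, 2.75, 2.79 and 3.21 in LPS kidney, against 1.38, 1.82, -0.58 and 2.22 in PBS kidney. The groups did not overlap, though LPS replicate 1 and PBS replicate 4 were within 0.1 of each other. The difference was 1.55 (SE 0.60, adjusted p = 0.556, 95% interval 0.18 to 2.92) and did not pass the test. Probe 2 of *tnfrsf1a* gave 1.29 (SE 0.56, adjusted p = 0.556), and its groups overlapped. PBS replicate 3 was the lowest array for both probes, and without it the difference of probe 1 was 0.95 (limma, adjusted p = 0.419). Within slide 2 it was 0.38.

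*tnfrsf1b* and *tnfrsf21* overlapped in the kidney. Probe 1 of *tnfrsf1b* gave -2.85, -2.52, -2.34 and -1.80 in LPS kidney, against -3.09, -2.32, -3.85 and -2.22 in PBS kidney (difference 0.49, SE 0.45, 95% interval -0.53 to 1.51). Probe 1 of *tnfrsf21* gave -2.95, -2.58, -1.26 and -1.92 in LPS kidney, against -2.41, -2.19, -4.69 and -1.68 in PBS kidney (difference 0.56, SE 0.69, 95% interval -1.01 to 2.14). PBS replicate 3 was again the lowest array of both genes. It was also the PBS kidney array with the highest oocyte list mean (4.34, beside 3.93 in replicate 1), though not the highest summed level (715.3, beside 787.1). It had the lowest PBS kidney mean of the kidney tubule (0.77), neutrophil (1.99) and macrophage and dendritic cell (0.07) genes too. Its hepatocyte (3.74) and muscle fibre (-2.35) means were not the lowest. The part of these cell types in the receptor values was not tested. For *tnfrsf21* the difference was -0.09 without PBS replicate 3. With the slide as a block the differences were -0.35 for *tnfrsf1b* and -0.58 for *tnfrsf21*. In the kidney that fit compares only the 3 LPS arrays and 1 PBS array of slide 2. Over the kidney comparison, 1 of 8 member probes passed, where 0.0797% of all probes tested did, and 2 of 8 had every LPS array above every PBS array, against 2.03% of all probes. *tnfrsf18* is in both counts only with its spot of PBS replicate 4 left out. With the spot kept (-2.62) the groups overlapped, since LPS replicate 2 was at -2.65, and the probe did not pass (limma, adjusted p = 0.417).

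In the liver, all 8 probes had a higher mean after LPS and none passed the test, which 0.416% of 40103 probes did. An unadjusted p under 0.05 (limma) was reached by 4 of the 8, and by 6036 of all 40103. *tnfrsf1a* had the smallest adjusted p-values and was the member whose groups did not overlap. Probe 1 gave 3.46, 2.64, 3.22 and 3.40 in LPS liver, against -0.33, 1.59, 0.99 and 1.42 in PBS liver. Probe 2 gave 0.40, -0.10, -0.04 and 0.24 in LPS liver, against -4.06, -1.61, -2.72 and -1.77 in PBS liver, where replicates 1 and 3 were not well above background. On both probes every LPS array stood above every PBS array, which holds for 5.13% of all probes in this tissue, and PBS replicate 1 was the lowest array. The differences were 2.26 (SE 0.48, 4.8-fold, 95% interval 1.21 to 3.32) and 2.67 (SE 0.54, 6.35-fold, 95% interval 1.48 to 3.85), with adjusted p-values of 0.0775 and 0.0701, just short of the threshold. Within slide 6, which held LPS replicate 1 and PBS replicates 2, 3 and 4, they were 2.13 and 2.44.

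The side of the threshold on which *tnfrsf1a* fell in the liver depended on the setting. Its adjusted p was 0.0495 after a shift at the 50th percentile and 0.0191 without PBS liver replicate 2 (difference 2.49), the PBS array with the highest *tnfrsf1a*. Without that array *tnfrsf1b* passed as well (2.15, adjusted p = 0.0351). That fit called 2465 of all probes, against 167 with all liver arrays. Oocyte RNA moved with the treatment in this tissue. The mean of the 15 oocyte and germ cell genes was 0.62, 0.57, 0.20 and -0.31 in LPS liver, against 4.36, 0.86, 3.59 and 2.66 in PBS liver, with no overlap, and its summed level was 66.0 to 127 in LPS liver, against 153.8 to 665 in PBS liver. PBS replicate 2, with the least of it, had the highest *tnfrsf1a* of the PBS livers, and PBS replicate 1, with the highest list mean, the lowest. By summed level PBS replicates 1 and 3 were equal (664.7 each), with *tnfrsf1a* at -0.33 and 0.99. The pair of arrays nearest in oocyte RNA, LPS replicate 1 at 0.62 and PBS replicate 2 at 0.86, had 3.46 and 1.59 for *tnfrsf1a*. When the list mean was added to the model as a covariate, a choice made after the values were seen, the *tnfrsf1a* difference was 1.05 (SE 0.61, adjusted p = 0.858). Since the list did not overlap between the groups, that fit cannot separate oocyte RNA from the treatment.

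Markers of neutrophils and of macrophages and dendritic cells moved with the treatment in the liver as well, while those of lymphocytes overlapped. The mean of 5 neutrophil genes ran from -0.15 to 2.16 in LPS liver, against -1.77 to -0.36 in PBS liver (summed level 50.2 to 124 and 1.86 to 36.9), and none of the 5 was below background throughout. The mean of 10 macrophage and dendritic cell genes ran from 1.57 to 1.90 in LPS liver, against -1.41 to 0.95 in PBS liver (summed level 188.4 to 198 and 33.8 to 221), with 1 gene in each group not well above background on any of its arrays. In PBS liver replicates 1 to 4 the macrophage and dendritic cell mean was -1.41, 0.95, 0.24 and 0.65, in the same order as *tnfrsf1a*. In LPS liver (1.57, 1.77, 1.90 and 1.84) it did not follow the order of *tnfrsf1a*. The means of both lists did not overlap between the groups, and their part in the differences of the receptors was not tested. The T and NK cell list ran from -2.76 to -2.39 in LPS liver, against -3.74 to -2.14 in PBS liver. The B cell list ran from -3.25 to -2.14 in LPS liver, against -3.80 to -2.68 in PBS liver.

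The other receptors were faint in the liver. *tnfrsf18* gave -2.58, -1.33, -1.57 and -1.36 in LPS liver, with replicate 1 not well above background, against -5.42, -3.97, -2.05 and -4.81 in PBS liver, where no array was. PBS replicate 3 reached into the range of the LPS arrays. The measured difference was 2.35 (SE 0.67, adjusted p = 0.14). Against the lowest signal that each PBS array could resolve, the LPS mean of *tnfrsf18* was 1.93-fold higher. That mean includes LPS replicate 1, so this is not a strict lower bound. Probe 1 of *tnfrsf1b* gave -2.18, -3.79, -2.62 and -2.12 in LPS liver, against -5.21, -2.94, -4.86 and -4.40 in PBS liver. Its groups overlapped through LPS replicate 2 and PBS replicate 2. The difference was 1.67 (SE 0.57, adjusted p = 0.198). The same kind of limit gives 1.08-fold, again not a strict lower bound, with 2 of 4 LPS arrays well above background and 0 of 4 PBS arrays. *tnfrsf21* differed by 1.12 (SE 0.75, probe 1) and 1.02 (SE 0.53, probe 2), with overlapping groups and adjusted p-values of 0.535 and 0.401. With the oocyte list as a covariate the differences of *tnfrsf1b* and *tnfrsf21* (probe 1) were -0.07 and -0.30. In the liver that fit cannot separate oocyte RNA from the treatment.

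**Figure D3:**
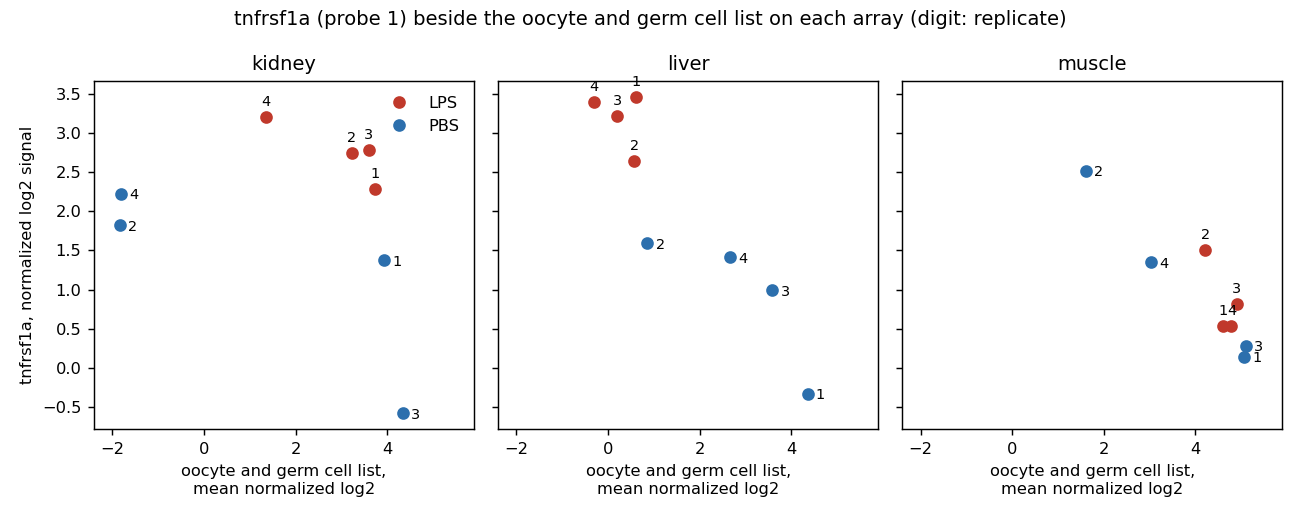
Normalized log2 signal of *tnfrsf1a* probe 1 (y axis) against the mean normalized log2 level of the 15 oocyte and germ cell genes (x axis) on each array of kidney, liver and muscle, LPS and PBS in 2 colours and replicate numbers as digits. In each tissue the PBS array with the highest or nearly the highest list mean (4.34 in kidney, 4.36 in liver, 5.07 in muscle) has the lowest *tnfrsf1a* (-0.58, -0.33 and 0.15). The macrophage and dendritic cell list, not plotted, had means of 0.07, -1.41 and -0.52 on these arrays. These were the lowest of the PBS arrays in kidney and liver, but not in muscle (-1.15 in replicate 3). The part of either list in *tnfrsf1a* was not tested.

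In the muscle, none of the 8 probes passed the test or separated the groups (0 had an unadjusted p under 0.05), and 0% of the 40400 probes tested passed (1235 had an unadjusted p under 0.05). LPS arrays stood above all PBS arrays for 0.609% of all probes. *tnfrsf1a* gave 0.54, 1.51, 0.82 and 0.54 in LPS muscle, against 0.15, 2.51, 0.28 and 1.35 in PBS muscle (difference -0.22, SE 0.57, 95% interval -1.49 to 1.05). The PBS arrays fell into a low pair, replicates 1 and 3, and a high pair, replicates 2 and 4. The oocyte list showed the opposite pattern, with 4.6, 4.21, 4.91 and 4.79 in LPS muscle and 5.07, 1.62, 5.11 and 3.04 in PBS muscle. Without PBS replicate 2 the *tnfrsf1a* difference was 0.26. A rise of the size measured in the liver lies outside the interval in the muscle, but the difference between the tissues did not pass its own test (2.48, liver minus muscle, adjusted p = 0.323).

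The other members did not separate the muscle groups either. *tnfrsf18* gave -4.22, -3.03, -3.49 and -3.82 in LPS muscle, all well above background, against -2.78, -1.30, -6.37 and -3.67 in PBS muscle, where the last 2 were not. The PBS values spanned more than 5 log2 units around the LPS arrays, and the difference was -0.11 (SE 0.90, 95% interval -2.12 to 1.89). It was -2.92 within slide 4 (1 LPS and 1 PBS array) and 1.76 within slide 10 (2 and 2). *tnfrsf1b* (probe 1) ran from -3.64 to -2.73 in LPS muscle and from -3.91 to -2.63 in PBS muscle. For *tnfrsf21*, the LPS muscle arrays lay close together at -1.97, -1.61, -1.67 and -2.2 on probe 1, while the PBS muscle arrays gave -3.04, -2.27, -4.49 and -1.08. The 2 probes of *tnfrsf21* pointed in opposite directions, with differences of 0.86 (SE 0.65) and -0.62 (SE 0.66).

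**Figure D4:**
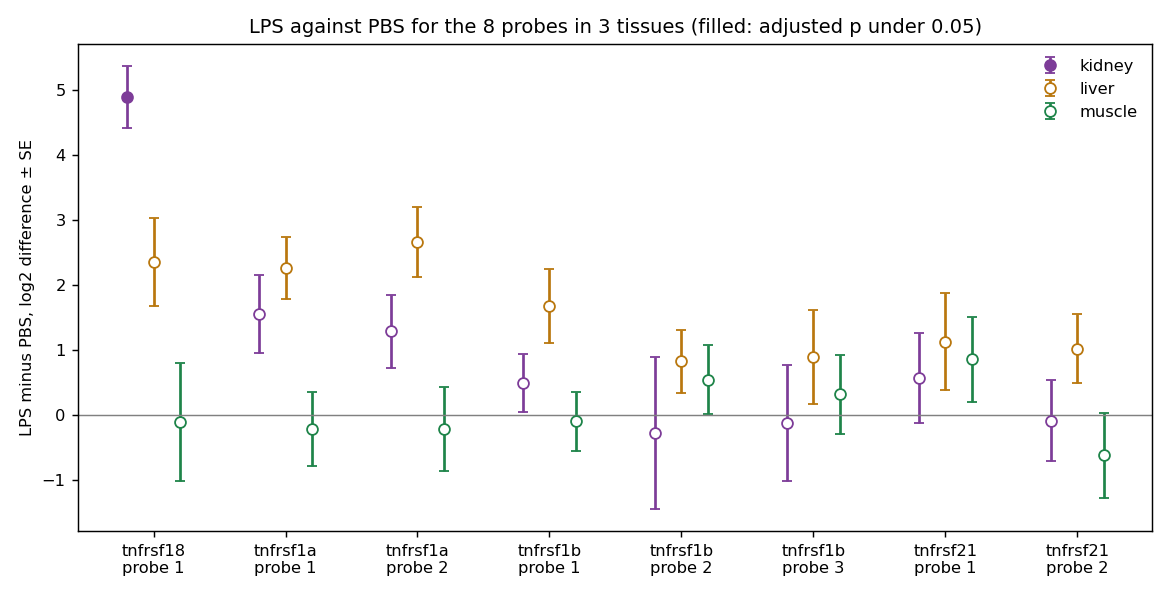
Log2 difference, LPS minus PBS (y axis, ± SE), of the 8 probes (x axis) in kidney, liver and muscle, with filled points for an adjusted p under 0.05. The filled point is *tnfrsf18* in the kidney (4.89), which lost its call when the left-out spot was kept (3.90), and all 8 liver points lie above 0.

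Over all 24 arrays (12 LPS, 12 PBS), the 8 probes all had a higher mean after LPS and 0 passed, where 0.299% of 42434 probes did. An unadjusted p under 0.05 (limma) was reached by 3 of the 8, and by 1858 of all 42434. The differences were 2.21 for *tnfrsf18* (SE 0.62, adjusted p = 0.228), 1.2 for *tnfrsf1a* (SE 0.42, adjusted p = 0.578), 0.69 for *tnfrsf1b* (SE 0.35) and 0.85 for *tnfrsf21* (SE 0.51), probe 1 in each case. By tissue, *tnfrsf18* differed by 4.89, 2.35 and -0.11 in kidney, liver and muscle. With the oocyte list as a covariate *tnfrsf1a* passed over all tissues (1.21, adjusted p = 0.0255) and in the kidney (2.07, adjusted p = 0.0191), while in the liver it did not (adjusted p = 0.858). In that kidney fit (limma) the adjusted p of *tnfrsf18* was 0.00376, against 0.0256 without the covariate. That of *tnfa* was 0.00376, against 0.0783. The calls of *tnfrsf1a* with the covariate are therefore not read as particular to it.

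Whether the response differed between tissues was tested as a contrast of the LPS effects over 6 groups, with 0 member probes called in each of the 3 contrasts (limma). An unadjusted p under 0.05 was reached by 1 probe for kidney against liver, 2 for kidney against muscle and 4 for liver against muscle. Among all 42434 probes, 0% were called for kidney against liver, 0% for kidney against muscle and 0.00236% for liver against muscle. The unadjusted p was under 0.05 for 3410, 5346 and 5598 of them in the same order. The largest member value was that of *tnfrsf18* in kidney against muscle, 5.0 (SE 1.16, unadjusted p = 0.000308, adjusted p = 0.285), which rests on the same 3 PBS kidney arrays. It passed without PBS kidney replicate 4 or without PBS muscle replicate 3, with adjusted p-values from 0.0178 upward over the 24 arrays left out in turn. Those fits called 3435 and 5 of all probes, against 0 with all arrays. PBS kidney replicate 4 had no value for *tnfrsf18*, whose difference stayed at 5.0 without that array. *tnfrsf1a* in liver against muscle gave 2.48 (SE 0.80, adjusted p = 0.323) on probe 1 and 2.88 (SE 0.87, adjusted p = 0.32) on probe 2. With the oocyte list as a covariate, *tnfrsf1a* passed for kidney against muscle (2.1, adjusted p = 0.0108, against 1.77 and 0.357 without it). This call is likewise not read as particular to *tnfrsf1a*. The kidney and liver effects of *tnfrsf1a* differed by -0.71 (SE 0.80, kidney minus liver, adjusted p = 0.756).

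Without LPS, levels were compared between tissues on the PBS arrays. *tnfrsf1a* differed between the 3 tissues by less than the spread of the arrays, at 1.21 ± 1.24 in PBS kidney, 0.92 ± 0.87 in PBS liver and 1.07 ± 1.1 in PBS muscle (SD, n = 4 each), and no pair of tissues passed the test on either probe. For probe 1 the 95% interval of the difference was -0.88 to 1.47 for kidney minus liver, -1.04 to 1.31 for kidney minus muscle and -1.33 to 1.02 for liver minus muscle. Of the 4 genes, 2 were called for PBS kidney against PBS liver, where 26.6% of genes were, 1 for PBS kidney against PBS muscle (17.2%) and 0 for PBS liver against PBS muscle (20.5%). For PBS liver against PBS muscle 2 genes had an unadjusted p under 0.05 in limma, through 3 of 8 probes, beside 11806 of all 42434 probes. The fitted value of *tnfrsf1b* (probe 1) passed for PBS kidney, with -3.09, -2.32, -3.85 and -2.22, minus PBS liver (1.48, SE 0.50, adjusted p = 0.0359). Probes 2 and 3 gave 0.10 and 0.18 and did not pass. The call was lost without PBS kidney replicate 1, 2 or 4 and without PBS liver replicate 1, 3 or 4, with adjusted p-values of 0.0698 to 0.107. No PBS liver array was well above background for probe 1. The mean limit of those arrays (-2.78) lay above the PBS kidney mean (-2.87), so no direction is read and no fold is given. The fitted values of *tnfrsf18* passed for PBS kidney minus PBS liver (-2.53, adjusted p = 0.0361) and PBS kidney minus PBS muscle (-3.06, adjusted p = 0.0194). Since 1 of 3 PBS kidney, 0 of 4 PBS liver and 2 of 4 PBS muscle arrays measured the probe, and the limits of the PBS kidney arrays of slide 8 lay lower (-7.49 to -4.39) than those of the PBS liver arrays (-3.36 to -2.17), no direction is read from them. These calls rest on the 3 arrays of slide 8, and with the left-out spot kept they ended (-1.54, adjusted p = 0.26, and -2.07, adjusted p = 0.16). *tnfrsf21* (probe 1) was well above background in PBS kidney and PBS muscle, at -2.74 ± 1.33 and -2.72 ± 1.43, and on 0 of 4 PBS liver arrays. Against the limits of those liver arrays its mean was at least 1.03-fold higher in kidney and at least 1.05-fold higher in muscle. Neither contrast with the liver passed (limma, adjusted p = 0.0974 for kidney and 0.124 for muscle), and the groups overlapped.

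Ordered by their means over the 6 groups, the levels of *tnfrsf1a* ran from LPS liver (3.18 ± 0.37) and LPS kidney (2.76 ± 0.38) to PBS kidney (1.21), PBS muscle (1.07), PBS liver (0.92) and LPS muscle (0.85 ± 0.46). LPS kidney and PBS kidney were the only neighbours in this order whose arrays did not overlap. For *tnfrsf18* the order was LPS kidney (-1.70 ± 0.74), LPS liver (-1.71 ± 0.59), PBS muscle (-3.53 ± 2.13), LPS muscle (-3.64 ± 0.50), PBS liver (-4.06 ± 1.47) and PBS kidney (-6.59 ± 0.31, n = 3), with overlap between all neighbours but the last pair. The place of the last 2 in this order is not established, since 0 of 4 and 1 of 3 of their arrays measured the probe. *tnfrsf1b* ran from LPS kidney (-2.38 ± 0.44) to PBS liver (-4.35 ± 1.0) and *tnfrsf21* from LPS muscle (-1.86 ± 0.28) to PBS liver (-4.52 ± 1.12), and all neighbours in both orders overlapped. The lowest mean of *tnfrsf1b* and *tnfrsf21* was in a group in which no array measured them.

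The probes of a gene did not always move together across arrays. The 2 probes of *tnfrsf1a* had a Pearson r of 0.958 over the 24 arrays and those of *tnfrsf21* 0.669. The 3 probes of *tnfrsf1b* had r between 0.332 and 0.498, and since probes 2 and 3 were mostly near background, only probe 1 is followed here. Between genes, *tnfrsf1a* had r = 0.764 with *tnfrsf1b*, 0.704 with *tnfrsf18* (23 arrays) and 0.277 with *tnfrsf21*. These correlations describe arrays that share tissue, treatment and cell make-up, and no test is attached to them.

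Of all genes measured well above background on at least 4 arrays, those with the pattern most like *tnfrsf1a* included *stat1a* (r = 0.97), *irf7* (0.969), *irf9* (0.963) and *tax1bp1b* (0.96). *stat1a*, *irf7* and *irf9* encode transcription factors of the interferon response, and *tax1bp1b* is named after a mammalian partner of the NF-kB inhibitor A20. The genes most like *tnfrsf18*, over 23 arrays, were *tubb6* (0.844), *il12ba* (0.841), *fosl1a* (0.834), *noxa1* (0.798) and *mapkapk3* (0.792), among them a subunit of interleukin 12, a component of the AP-1 transcription factor and a kinase downstream of p38. The nearest gene to *tnfrsf1b* was *shisa10.1* (0.885), followed by *ccnl1a*, *notch2*, *cyth1a* and *efna1a* at 0.875 to 0.882. *tnfrsf21* was nearest to *sema3d* (0.861), which encodes a guidance protein of the semaphorin family, then to *si:dkeyp-69e1.8*, *crim1*, *dpysl2b* and *adamts15a* at 0.828 to 0.844.

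Among the ligands, *tnfa*, the ligand of both TNF receptors in mammals, gave -0.13, 0.02, 0.28 and 0.85 in LPS liver, against -5.10, -1.95, -4.30 and -3.53 in PBS liver. It passed the test there (3.97, SE 0.62, adjusted p = 0.0251) and over all tissues (3.55, SE 0.47, adjusted p = 0.000177). The liver call was lost with the oocyte list as a covariate (1.65, adjusted p = 0.757), with the slide as a fixed block (3.13, adjusted p = 0.258), with the replicate block (adjusted p = 0.104) and with normexp (2.78, adjusted p = 0.0773). It was also lost without PBS liver replicate 1, 3 or 4 or LPS liver replicate 1, 3 or 4, with adjusted p-values of 0.0509 to 0.113. The call over all tissues was lost with the slide as a fixed block (2.55, adjusted p = 0.091). In the kidney it gave 0.18, -0.49, -1.53 and 1.13 after LPS, against -5.08, -4.28, -5.40 and -3.55 after PBS, a difference that missed the threshold (4.40, SE 0.64, adjusted p = 0.0783). In the muscle it gave -3.08, -1.15, -2.44 and -1.92 after LPS, against -4.88, -3.17, -5.34 and -4.38 after PBS (2.29, SE 0.59, adjusted p = 0.916). *tnfa* was thus above every PBS array of its tissue on each LPS array, including in muscle, where *tnfrsf1a* was not. The margin in muscle was small, with LPS replicate 1 at -3.08 and PBS replicate 2 at -3.17. *tnfa* was well above background on 2 of 4 PBS kidney, 1 of 4 PBS liver and 1 of 4 PBS muscle arrays. The second TNF gene, *tnfb*, gave 2.07 in kidney, 2.17 in liver and 1.45 in muscle, with adjusted p-values of 0.536, 0.0775 and 0.916. Of the 14 listed ligands on the array, 12 or 13 were tested in each comparison, and no ligand other than *tnfa* passed for LPS against PBS. Their median difference was 0.43 for kidney, 0.73 for liver and -0.37 for muscle, beside -0.02, 0.04 and -0.09 over all genes. *tnfsf18*, the ligand of GITR in mammals, differed by 1.94 in the kidney (SE 0.70, adjusted p = 0.556) and 0.61 in the liver (SE 0.43), and the Fas ligand gene *faslg* by -0.34 in the kidney and 0.85 in the liver.

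Among other TNF receptors, 6 of the 25 listed were on the array and *tnfrsf9a*, which encodes a co-stimulatory receptor (4-1BB in mammals), passed over all tissues (2.97, SE 0.47, adjusted p = 0.00178). Its LPS arrays ran from 3.91 to 4.47 in kidney, against -0.95 to 1.14 on PBS kidney arrays, and from 3.43 to 4.50 in LPS liver, against -1.77 to 1.82 in PBS liver. In single tissues it fell just short (3.68, adjusted p = 0.0579 in kidney, and 3.73, adjusted p = 0.0553 in liver). Unlike the spot of *tnfrsf18*, its PBS kidney replicate 4 stood at 1.14, below the LPS range.

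Downstream of the receptors, 3 of 18 adaptor and signalling genes passed over all tissues, all higher after LPS, where 0.443% of all genes with a symbol passed, and 0 in any single tissue. They were *traf3*, an adaptor that restrains noncanonical NF-kB signalling (1.98, SE 0.31, adjusted p = 0.00166), *birc2*, a ubiquitin ligase of the TNFR1 complex (1.11, SE 0.25, adjusted p = 0.0447), and *traf1*, which passed through its other probe. The adaptor gene *tradd* had differences of -0.13, 0.12 and 0.05 in kidney, liver and muscle and did not pass. Of 12 caspases and regulators, 1 passed as higher and 1 as lower in the liver, where 0.666% of genes passed in either direction, and 0 in kidney, in muscle and over all tissues. The higher one was *casp9*, the initiator caspase of the mitochondrial pathway (2.87, SE 0.52, adjusted p = 0.049). The lower one was *diabloa*, whose product counteracts inhibitors of apoptosis (-4.37, SE 0.55, adjusted p = 0.0112). It stood at 1.65 ± 0.45 in LPS liver, against 6.02 ± 1.12 in PBS liver, groups that also differed in oocyte RNA. With the oocyte list as a covariate, a choice made after the values were seen, this call did not hold. The oocyte list did not overlap between the liver groups, so that fit cannot decide on a part of oocyte RNA in the fall. In PBS liver replicates 1 to 4 *diabloa* was 4.80, 7.14, 5.36 and 6.77, where the oocyte list mean was 4.36, 0.86, 3.59 and 2.66. The hepatocyte list mean on these PBS arrays was 6.06, 8.10, 6.89 and 7.72, in the same order as *diabloa*. In LPS liver it was 8.09, 3.54, 7.89 and 8.51. The part of oocyte RNA or of hepatocytes in the *diabloa* values was not tested. *casp8*, the initiator caspase next to the receptors, gave 0.88, 1.41 and -0.28 in kidney, liver and muscle, and did not pass.

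Of the 5 lists, that of NF-kB subunits, inhibitors and feedback targets had the most calls for LPS against PBS. It includes *il1b* and *cxcl18b*, and the lists were chosen with earlier results of these data known. The rank is therefore not an independent result. Of 12 tested, 2 passed in kidney, 5 in liver, 0 in muscle and 6 over all tissues, all higher after LPS. Among all genes with a symbol, 0.0891% passed in kidney, 0.666% in liver, 0% in muscle and 0.443% over all tissues. Besides *il1b* (7.13 in kidney and, with 0 of 4 PBS liver arrays well above background, at least 20.9-fold in liver, adjusted p = 0.00238) and the chemokine *cxcl18b* (4.46 and 5.60), these were in the liver *nfkbiaa*, the inhibitor that NF-kB itself induces (3.76, SE 0.59, adjusted p = 0.0326, but -0.22 with the oocyte list as a covariate), *nfkb2*, a subunit of the noncanonical pathway (2.2, SE 0.36, adjusted p = 0.0298), and *tnip1*, a partner of A20, through another of its probes. Over all tissues *nfkbie* joined them (1.54, SE 0.32, adjusted p = 0.0238). With the oocyte list as a covariate, none of the liver calls of *il1b*, *cxcl18b*, *nfkbiaa*, *nfkb2*, *casp9* and *diabloa* held. The oocyte list did not overlap between the liver groups, so that fit cannot separate oocyte RNA from the treatment for these genes. The loss of these calls is therefore not read. With the slide as a fixed block, the liver comparison rests on 1 LPS array (slide 6) and the kidney comparison on 1 PBS array (slide 2). Whether the liver and kidney calls survived that block is therefore not read. Over all tissues the calls of *traf3*, *tnfrsf9a*, *birc2*, *nfkb2*, *nfkbiaa* and *nfkbie* were lost with it. The median difference of the list was 1.32 in kidney, 2.1 in liver and 0.69 in muscle. On the PBS arrays, 10 genes of these 5 lists passed for kidney against liver, 8 for kidney against muscle and 10 for liver against muscle, of 6, 13, 18, 12 and 12 genes tested per list, while 26.6%, 17.2% and 20.5% of all genes passed. Among them were *relt*, another receptor of the family, lower in PBS kidney (-2.13, adjusted p = 0.0164, 3 of 4 arrays well above background) than in PBS muscle. It was at least 1.3-fold higher in PBS muscle than in PBS liver (adjusted p = 0.0075), where 0 of 4 arrays measured it. *tnfrsf19* was higher in PBS kidney than in PBS liver (3.93, adjusted p = 0.0014), where 1 of 4 arrays measured it.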

How the data were processed

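Labelled RNA of 24 tissue pools was hybridised to 1-colour Agilent zebrafish arrays. Each deposited scanner file gives, per spot, a background-corrected intensity from Agilent Feature Extraction (version 10.7.3.1 in the file headers, 10.4.0.0 in the submitters' processing notes). The authors also deposited a table of log2 values shifted to the 75th percentile in GeneSpring. It was used as an alternative, and after centring each probe 100% of its values agreed within 0.01 with the scanner values over 35715 probes without flagged spots.

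Here the log2 intensity minus the 75th percentile of its array was taken, spots flagged as outliers were left out (2 member values), and spots of a probe were averaged. A comparison used the probes that on at least 1 of its arrays had a raw signal above the 20th percentile and below the 95th. Differences were tested with limma 3.58.1 in R 4.3.3, within each tissue for LPS against PBS and otherwise over 24 arrays in 6 groups, with Benjamini-Hochberg adjustment over all probes tested and a threshold of 0.05. A gene was called through any of its probes and valued by its brightest. The pipeline was checked on simulated data. Fold limits given as "at least", and those of *tnfrsf18* and *tnfrsf1b* in the liver, set each dim array at the higher of its lowest signal well above background and the probe's own signal. The brighter group kept its measured mean. The number of arrays limits the precision.

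Genes were named from the accession of the probe's target through tables of RefSeq genes, and 25069 probes had a symbol. The pattern nearest to a member was sought by Pearson's r among genes well above background on at least 4 arrays, and up to 5 were named per gene (1 is not reported here). List genes were named when called, up to 8 per comparison by size, together with *tnfa*. The genes *tnfb*, *tnfsf18*, *faslg*, *tradd* and *casp8* were added after their values were seen. The members and lists were chosen with earlier results of these data known. Sequences were not used here. Same-numbered LPS and PBS arrays deviated together in the kidney (r = 0.418, 0.394, 0.301 and 0.64 across probes for replicates 1 to 4). Some differently numbered kidney pairs were as close: LPS 1 with PBS 3 (0.443), LPS 3 with PBS 1 (0.314) and LPS 4 with PBS 2 (0.307). The rest ran from -0.646 to 0.0159. The replicate number was thus read as a possible pairing in the kidney only, in an alternative fit, and the labels do not state such a pairing. The labels do not say whether the tissues came from the same fish. Alternatives covered normalization, background, filters, flagged spots, blocks for slide, scan day, replicate and pool, a covariate for oocyte RNA, and leaving out each array.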

Additional observations from a re-analysis of the deposited data

Results flagged for a closer look

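Among 46 sets of 4 arrays of one probe, 1 held an array far from the rest. For probe 1 of *tnfrsf1b* in LPS muscle, replicate 2 stood at -2.73, while the other 3 arrays lay at -3.64, -3.56 and -3.54. Chance alone gives such a gap in about 1 of 20 sets.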

How the results depend on the processing

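Apart from leaving out arrays, 800 of 929 differences and 122 of 153 counts of members called kept their direction and their side of the threshold. With 1 array left out, 984 of 1096 differences and 168 of 192 counts did so. These totals include named list genes, and a difference not called at first keeps its side unless it gains a call. For *tnfrsf18* in the kidney, which was called, 8 of 14 alternatives and 1 of 8 fits with an array left out stayed the same. The depth of the faint probes is limited by the array background, and slide and treatment overlap in the kidney. The cause of the changes that follow was not tested, except where a stricter threshold, fewer arrays or a kept spot is the change itself.

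In the kidney, the 1 member called (*tnfrsf18*) became 0 with normexp (2.82, adjusted p = 0.768), the deposited table (3.90, 0.416), flagged spots kept (3.90, 0.417), a threshold of 0.01 (4.89, 0.0256) and the replicate block (4.63, 0.147). With flagged spots kept and a slide block, which rests on the 1 PBS array of slide 2, its difference was 0.66. With slide or scan day alone as a block the count was 0 because *tnfrsf18* could not be fitted. With the oocyte covariate 2 were called, *tnfrsf1a* among them (2.07). Leaving out arrays gave 0 to 1 called and 4.63 to 5.21 for *tnfrsf18*. The replicate block cut the probes called in the kidney to 5, against 32 without it. *tnfrsf1b* and *tnfrsf21* turned to -0.35 and -0.58 with a slide block (also with flagged spots kept) and to -0.15 and -0.50 with a scan day block. Both blocks leave PBS replicate 4 as the only PBS kidney array compared. *tnfrsf21* ran from -0.086 to 0.92 with an array left out.

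In the liver, 1 member was called after a shift at the 50th percentile (*tnfrsf1a*, 2.18) and in the fit of 24 arrays, and 0 to 2 with an array left out (*tnfrsf1a* 1.85 to 2.49, *tnfrsf1b* 1.39 to 2.15). With the oocyte covariate *tnfrsf1b*, *tnfrsf21* and *nfkbiaa* turned to -0.075, -0.30 and -0.22. The oocyte list did not overlap between the liver groups, so that fit cannot separate oocyte RNA from the treatment. In the muscle, *tnfrsf1b* turned to 0.25 when probes were averaged, *tnfrsf18* to 0.20 with a slide block, and *tnfrsf18*, *tnfrsf1a* and *tnfrsf1b* to 0.69, 0.39 and 0.26 with the oocyte covariate. With an array left out these ran from -1.06 to 0.63, -0.53 to 0.26 and -0.32 to 0.11. Over all tissues the oocyte covariate gave 1 call (*tnfrsf1a*, 1.21). Numbers did not pair the arrays in liver and muscle, where a replicate block changed no member's call for LPS against PBS.

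For the LPS effect in kidney against liver, the oocyte covariate turned *tnfrsf1a*, *tnfrsf1b* and *tnfrsf21* to 0.92, 0.17 and 1.01, and *tnfrsf21* ran from -1.21 to 0.10 with an array left out. For kidney against muscle, *tnfrsf21* turned to 0.11 (normexp), 0.12 (probes averaged) and 0.028 (oocyte covariate) and ran from -0.94 to 0.30, and *tnfrsf1b* turned to -0.22 (probes averaged), -0.090 (slide block), -0.053 (scan day block) and -0.053 without the 3 PBS kidney arrays of slide 8. The oocyte covariate called 2 members there, and leaving out an array 0 to 1. For liver against muscle, *tnfrsf21* turned to -0.53 (slide block) and -0.98 (oocyte covariate) and ran from -0.40 to 0.86.

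Between PBS kidney and PBS liver, the 2 members called became 1 with quantile normalization, the deposited table, flagged spots kept or probes averaged, and 0 with normexp, the filter at 4 arrays, a threshold of 0.01, a scan day block or without those 3 arrays, and 0 to 2 with an array left out. *tnfrsf1a* turned to -0.34 with the oocyte covariate and ran from -0.12 to 0.89. Between PBS kidney and PBS muscle, the 1 member called became 0 with quantile normalization, the deposited table, flagged spots kept or a threshold of 0.01, and 0 to 2 with an array left out. *tnfrsf1a* turned to -0.80 and *tnfrsf1b* to -0.39 with the oocyte covariate and *tnfrsf1b* to -0.27 with normexp, while *tnfrsf1a* ran from -0.20 to 0.73 and *tnfrsf21* from -0.61 to 0.63, and to 1.04 without those 3 arrays. Between PBS liver and PBS muscle, 1 member was called with quantile normalization, the replicate block, the pool as a random block or without those 3 arrays, and 2 with the oocyte covariate, against 0, and 0 to 1 with an array left out. *tnfrsf1b* turned to 0.55 when probes were averaged, *tnfrsf18* ran from -1.48 to 0.21 and *tnfrsf1a* from -0.47 to 0.32.

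A slide block could not be fitted for the PBS contrasts of tissues, nor slide or scan day for *tnfrsf18* where the kidney is involved, and the filter at 4 arrays left out *tnfrsf18*, *tnfrsf1b* and *tnfrsf21* in the liver. The scan day block, the kept spots with slide, the oocyte covariate and the fit without the 3 PBS kidney arrays of slide 8 were chosen after seeing the data. How many of all probes passed with the oocyte covariate is not given here, so its calls are not read as particular to the members.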
